A study of Mus musculus with 8 samples.

Results

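The genes described here encode the semaphorins of classes 3 to 7, the plexins and neuropilins that receive them, the Slits and their Robo receptors, and the Eph receptors with their ephrin ligands. Membership follows a pattern of gene names and uses no measured value, and 53 of the 14608 genes in the expression table belong to them. RNA-seq measured polyA RNA of the mouse outflow tract (OFT), the vessel root that joins the embryonic heart to the aorta and pulmonary artery, at embryonic day 11.5. The 8 libraries fall into 4 labelled control, with no further genotype given, and 4 labelled Mib1V943F/+ Gata6STOP/+. MIB1 is the ubiquitin ligase that lets NOTCH ligands signal, and the V943F allele changes an amino acid of its RING region. The Gata6STOP allele carries a premature stop codon in the gene of the transcription factor GATA6, so both genes are heterozygous in the mutant embryos, in every cell. Each library is a pool of 3 individuals per the labels, whereas the study's methods describe 3 pools per genotype, each of 4 pairs of OFT. The second group is called mutant-labelled, since *Gata6* RNA in these libraries did not set it apart. *Gata6* stood at 236, 279, 271 and 261 CPM (reads scaled to library size) in control libraries 1 to 4, against 213, 284, 276 and 224 CPM in mutant-labelled libraries 1 to 4. The control and mutant-labelled values of *Gata6* overlapped, and so did those of *Mib1* (log2 difference 0.07). The total RNA of a gene does not show which alleles are present, and V943F changes an amino acid. These levels are therefore no test of the genotype.

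These families were first known as guidance cues of growing axons, and they steer migrating cells and vessels in the same way. A semaphorin binds a plexin, with a neuropilin as co-receptor for most of class 3, and the plexin then shuts off Rap and Ras GTPases and loosens adhesion of the cell. Slits are secreted and bind Robo receptors. Ephrins stay on the cell surface, type A through a lipid anchor and type B through a membrane span, so that Eph signals pass between touching cells and in both directions. In the OFT, *Sema3c* draws cardiac neural crest cells that carry *Plxna2*, *Plxnd1* and neuropilins, and mice without *Sema3c* or *Plxnd1* fail to divide the aorta from the pulmonary artery. *Efnb2* and its receptor *Ephb4* mark arterial and venous endothelium. *Sema3c* and *Plxna2* are known targets of GATA6 in this tissue.

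Since the mutant carries a *Gata6* allele and a *Mib1* allele, the promoters of the members were read on both strands for the motif of GATA factors, which reads AGATAA, for its variant with a T in front, which reads TGATAA, and for that of RBPJ, the DNA-binding partner of NOTCH, which reads GTGGGAA. RefSeq (GRCm38.p6) gave 63 promoters for 47 of the 53 genes, each from 250 bases before to 50 bases after the transcription start. The matched sites are shown because they are the only places in these windows where the members hold a spelling that was searched. Other spellings of these motifs were not searched, so a gene without a match may still hold one. Capitals mark the match, read 5′ to 3′ along the gene's own strand, and a match on the other strand appears as TTATCT for GATA factors and as TTCCCAC for RBPJ. The 5 genes with a GATA match are *Plxna2*, *Sema6d*, *Epha3*, *Efna4* and *Robo2*.
Plxna2, chr1:194619763-194619792, plus strand: acgcggcctctaTGATAAtgagctgagcgg
Sema6d, chr2:124653458-124653487, plus strand: tgctaggtctctTGATAAatagggaactat
Epha3, chr16:63864166-63864195, minus strand: ccagactcctccTTATCTccagtgtcaaac
Efna4, chr3:89338192-89338221, minus strand: tccagcacagtgAGATAAcaaagggacgct
Robo2, chr16:75092939-75092968, minus strand: ctgaagcagtcgTTATCTgctggcggtgcc
The 2 genes with an RBPJ match are *Epha7* and *Plxnb2*.
Epha7, chr4:28813026-28813055, plus strand: gccccccggccGTGGGAAtcgccgcctagc
Plxnb2, chr15:89180861-89180890, minus strand: gccgcccctccTTCCCACcctctacccctt
The *Robo2* site lies outside the annotated gene (chr16:73891839-74411825), and the *Sema6d* site lies far inside its own (chr2:124089969-124667770). The *Plxna2* site also lies inside its gene (chr1:194618218-194816869). The windows of *Robo2*, *Sema6d* and *Plxna2* thus belong to starts other than the outermost start of the annotated gene. The levels use all annotated exons of a gene. A GATA match was found for 10.6% of the member genes with a promoter, against 12.2% of all genes of the table with one. The share with an RBPJ match was 4.26% against 7.26%. The spellings searched were thus no more frequent among these genes than in the table. A match of letters does not show that a factor binds.

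All 53 genes were read in every library, with 9 reads as the lowest value of any gene in any library, and 45 of them had at least 100 reads in each. The reads on listed genes ran from 10669420 in control library 2 to 30469165 in mutant-labelled library 3, so that 1 read was worth between 0.0325 and 0.0948 CPM. Levels of different genes were compared as CPM per kb, which is CPM divided by the length of all annotated exons of the gene. On that scale *Plxnb2*, a receptor for class 4 semaphorins, was the most abundant member, with a mean of 46.2 CPM per kb and a range of 41.4 to 50.3 over the 8 libraries. *Plxnd1*, the endothelial and neural crest receptor, followed at 37.0 CPM per kb, and its range of 28.1 to 46.35 overlapped that of *Plxnb2*. Next came *Ephb4* at 31.4, the ephrin *Efnb3* at 30.6, *Sema3c* at 27.6 and *Efnb2* at 24.3 CPM per kb, and neighbours in that order overlapped over the libraries. The level then dropped to 15.3 CPM per kb for *Efnb1*, whose range of 14.05 to 17.3 lay below the lowest value of *Efnb2* (21.5).

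The gene with the highest mean of its family was in most cases above the next in every library. The exceptions were class 5 and the *Efna* and *Efnb* genes, whose upper pairs changed order between libraries. *Robo1* was above *Robo2* within every library, although their ranges touched (6.64 to 10.81 and 4.58 to 6.66 CPM per kb). *Sema3c* led class 3, *Sema4c* class 4 (11.7 CPM per kb), *Sema5b* class 5 (1.835), *Sema6d* class 6 (9.404) and *Sema7a* was the only gene of class 7 (2.12). Among receptors of semaphorins, *Plxna1* led the plexin A genes at 12.6 CPM per kb and *Nrp1* stood at 11.7 CPM per kb against 5.62 for *Nrp2*. *Slit3* (11.7 CPM per kb) stood above *Slit2* (4.34), and *Robo1* (7.96) above *Robo2* (5.70). Of the ephrins and Eph receptors of type A, *Efna1* (15.3 CPM per kb) and *Efna5* (14.99) could not be ranked, since *Efna5* was the higher of the pair in the mean of the mutant-labelled libraries (16.1 against 15.2), and *Epha7* (11.98) was the highest receptor. These levels depend on the length used. With the longest protein-coding transcript as length, *Nrp1* stood at 31.7 and *Robo1* at 17.4 CPM per kb, and *Efnb2* (34.8) came above *Efnb3* (30.6). On that length *Slit3* (13.6) and *Slit2* (11.1) lay near each other, and *Slit2* was the higher in control library 1. At the low end, 6 genes stayed under 3 CPM in all libraries, *Sema3e* being the lowest at 0.152 CPM per kb.

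**Figure D1:**
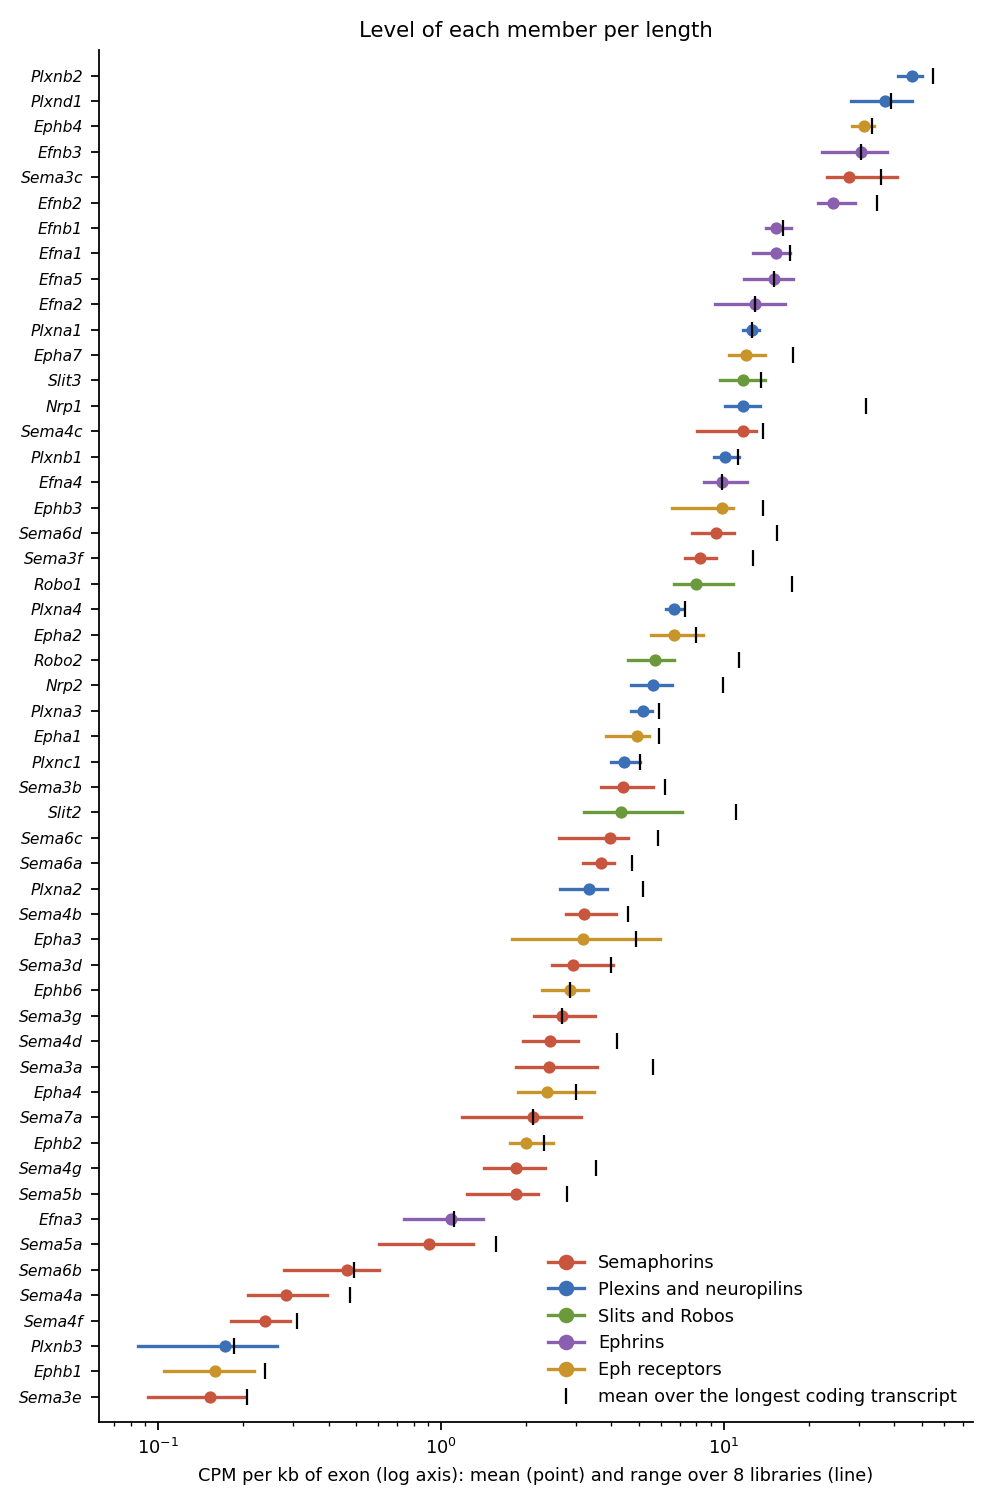
Level of each of the 53 genes in CPM per kb on a log axis, with points for the mean and lines for the range over the 8 libraries, coloured by family. Black ticks give the mean with the longest coding transcript as length. *Plxnb2* and *Plxnd1* stand at the top (46.2 and 37.0 CPM per kb), and *Sema3e* at the bottom (0.152).

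The comparison of the 2 genotypes asks whether OFT that carries both the *Mib1* and the *Gata6* allele differs in the levels of these genes. Differences are given as log2 of the mutant-labelled over the control level, on the scale of log2(CPM + 0.5), and were tested with limma. After Benjamini-Hochberg adjustment over the table, 0 of the 53 genes passed the threshold of 0.05 in limma, as did 0.0% of all genes. The smallest adjusted p in limma was 0.228 among the members and 0.124 in the table. At an unadjusted p under 0.05, limma left 12 of the 53 genes (22.6%), against 12.1% of all genes, 6 of them above the controls on average and 6 below (5.45% and 6.62% of all genes). With the trend of each library with GC content removed, that count was 16 of 53, of which 11 were higher and 5 lower, against 11.2% of all genes (4.77% and 6.42%). Without the TMM scaling factor, 9 of the 53 were higher, against 7.95% of all genes, and 6 were lower, against 5.07% of all genes. The median log2 difference of the 53 genes was -0.01, with 23 higher and 30 lower, and that of all genes was 0.00. That balance turned with the scaling, to 28 higher and 25 lower without the TMM factor and to 32 higher and 21 lower with the GC trend removed. Of the 12 genes with an unadjusted p under 0.05, *Sema3g*, *Efnb3* and *Sema4d* stayed under it in limma whichever library was left out, and the other 9 rose above it without at least 1 library. The median size of the difference, sign set aside, was 0.15 for the members and 0.11 for all genes.

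The controls and mutant-labelled libraries did not overlap for 5 of the 53 genes, against 7.1% of all genes. *Sema3g*, *Efna5* and *Ephb1* lay above the controls (3.2% of all genes did so), and *Sema4d* and *Epha1* lay below them (3.9%). Other tests run on the reads recovered from the CPM values gave counts between 0 and 2 after Benjamini-Hochberg adjustment. The quasi-likelihood test of edgeR left 0 members, with 13 of 53 at an unadjusted p under 0.05 against 11.7% of all genes. The likelihood ratio test of edgeR left *Efnb3* alone, with an adjusted p of 0.0247, where 0.732% of all genes passed. Without 1 library, *Efnb3* passed in 2 of 8 such fits, and in the other 6 no member did. DESeq2 left *Efnb3* (adjusted p = 0.0141) and *Sema3g* (adjusted p = 0.0309), where 1.54% of the genes it tested passed. The p-values measure the spread between pools. In bulk tissue, fewer cells of a type and less RNA per cell cannot be told apart.

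**Figure D2:**
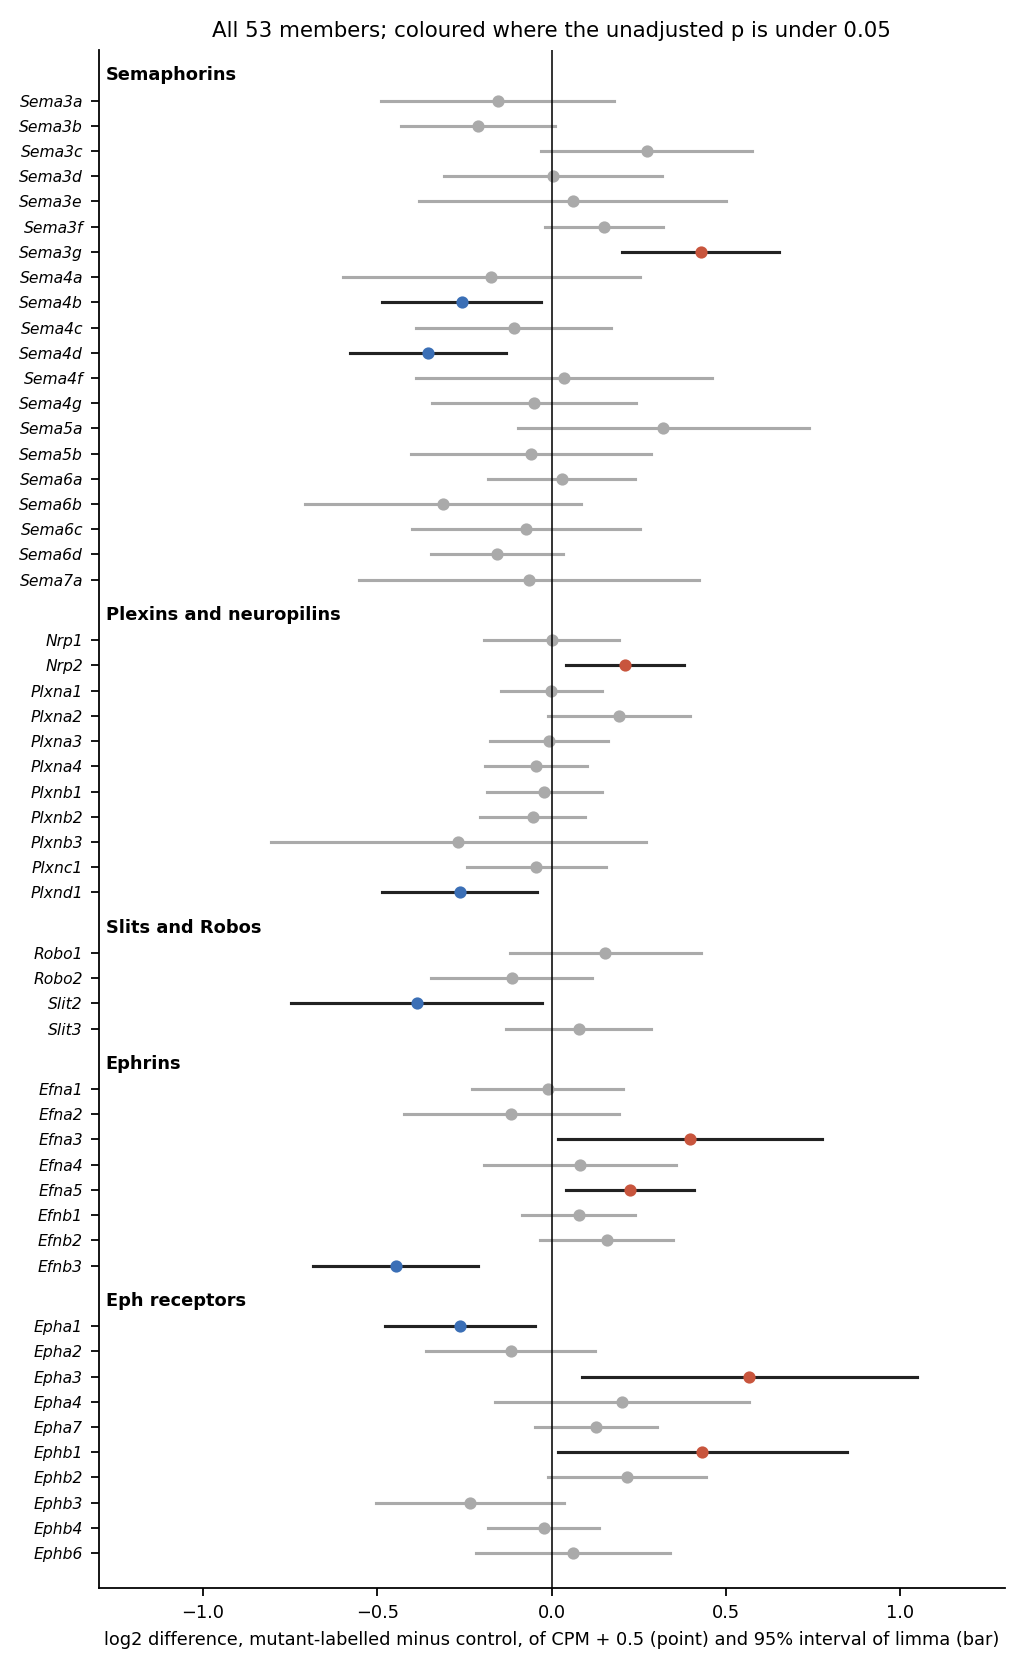
Log2 difference of each of the 53 genes, mutant-labelled minus control, with points for the estimate and bars for its 95% interval in limma. Coloured points mark the 12 genes with an unadjusted p under 0.05 (red higher, blue lower), from -0.45 for *Efnb3* to 0.57 for *Epha3*.

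Semaphorins of class 3 are secreted. The 7 genes of this class lay on both sides of 0, with 5 higher and 2 lower (3 and 4 with the GC trend removed), and the sum of their levels was 44.2 to 45.7 CPM per kb in controls and 43.3 to 62.5 CPM per kb in mutant-labelled libraries. *Sema3g*, a cue made by endothelium (chr14:31217860-31230352), stood at 10.45, 10.15, 10.6 and 9.71 CPM in control libraries 1 to 4, against 11.95, 14.2, 15.9 and 13.9 CPM in mutant-labelled libraries 1 to 4. Every mutant-labelled value was above every control, and the controls differed by less than 1 CPM. The difference was 0.43 on the log2 scale (SE 0.104, a 1.34-fold higher level), with a limma p of 0.00139 and an adjusted p of 0.228. The exact two-sided permutation p was 0.0286, the smallest that 4 against 4 libraries can give. Every gene whose groups do not overlap has this permutation p, so it is no further test of such a gene. The log2 difference stayed between 0.36 and 0.50 when any library was left out.

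*Sema3c*, the neural crest cue, stood at 177.5, 171.5, 172 and 185 CPM in control libraries 1 to 4, against 165.5, 293, 229.7 and 185 CPM in mutant-labelled libraries 1 to 4. The groups overlapped, and mutant-labelled library 2 stood far above the rest. The log2 difference was 0.27 (SE 0.139, limma p = 0.0731, adjusted p = 0.445, exact permutation p = 0.229). It was 0.12 without mutant-labelled library 2 and 0.39 without mutant-labelled library 1, where the unadjusted p in limma came under 0.05. *Sema3a*, a repellent of axons and endothelial cells, ranged over 25.5 to 49.5 CPM in controls and over 29.3 to 32.0 CPM in mutant-labelled libraries. The control span of *Sema3a* rests on control library 1, without which the log2 difference of -0.16 became 0.015. *Sema3d* ranged over 21.4 to 26.4 CPM in controls and 21.2 to 34.8 CPM in mutant-labelled libraries, a log2 difference of 0.01. It was -0.22 without control library 2 and mutant-labelled library 2.

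Classes 4 to 7 are bound to the membrane, except where they are cut off it. Of the 6 genes of class 4, 5 were lower and 1 higher (4 and 2 with the GC trend removed). *Sema4d*, the ligand of B-type plexins (chr13:51685529-51793747), stood at 23.4, 22.4, 21.3 and 17.4 CPM in control libraries 1 to 4. In mutant-labelled libraries 1 to 4 it stood at 17.2, 15.01, 16.45 and 16.6 CPM. The groups were barely parted, by the gap between control library 4 and mutant-labelled library 1. The log2 difference was -0.35 (SE 0.103, 1.28-fold lower), with a limma p of 0.00471, an adjusted p of 0.262 and an exact permutation p of 0.0286. *Sema4b*, another membrane semaphorin (chr7:80186841-80226527), stood at 18.7, 23.5, 19.9 and 16.9 CPM in controls and at 17.5, 15.6, 15.6 and 16.6 CPM in mutant-labelled libraries. Its groups overlapped through control library 4, and the log2 difference was -0.26 (SE 0.105, limma p = 0.0298, adjusted p = 0.380, exact permutation p = 0.0571). The receptors of *Sema4d*, *Plxnb1* and *Plxnb2*, had log2 differences of -0.02 and -0.05. The other classes gave no gene with an unadjusted p under 0.05 in limma. Their leading genes *Sema5b*, *Sema6d* and *Sema7a* had log2 differences of -0.06, -0.16 and -0.06, and *Sema4c* had -0.11.

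Plexins and neuropilins carry the semaphorin signal into the cell. Of the 9 plexins, 8 were lower and 1 higher, but 5 were lower and 4 higher without the TMM factor, and 4 lower and 5 higher with the GC trend removed. Of the 9, 7 lay within 0.20 of 0 on the log2 scale. *Plxnd1* (chr6:115954811-115995005), a receptor for *Sema3e* and, with neuropilins, for *Sema3c*, stood at 338, 300.5, 290.2 and 250.5 CPM in control libraries 1 to 4. In mutant-labelled libraries 1 to 4 it stood at 258, 205, 250.4 and 268 CPM. The groups overlapped in 250.5 to 268 CPM, and mutant-labelled library 2 was the lowest of all. The log2 difference was -0.26 (SE 0.102, limma p = 0.0238, adjusted p = 0.364, exact permutation p = 0.0857). With 60.8% GC, *Plxnd1* is among the GC-rich members, and its log2 difference was -0.14 after the GC correction.

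*Plxna2*, the neural crest receptor, ranged over 45.2 to 61.8 CPM in controls and over 57.8 to 66.4 CPM in mutant-labelled libraries. Its groups overlapped through control library 1, and the log2 difference was 0.19 (SE 0.093, limma p = 0.0601, exact permutation p = 0.114). It was 0.12 without control library 2 and 0.26 without control library 1, where the unadjusted p in limma came under 0.05. *Plxna1*, with the highest level of the A plexins, had means of 114 ± 7.98 CPM in controls and 114 ± 3.88 CPM in mutant-labelled libraries (SD, n = 4), so its difference was smaller than the spread of either group. *Nrp2* (chr1:62703285-62818695), the co-receptor of *Sema3c* and *Sema3f*, stood at 63.4, 60.03, 55.8 and 67.6 CPM in controls and at 72.5, 66.0, 77.7 and 69.5 CPM in mutant-labelled libraries. Control library 4 and mutant-labelled library 2 overlapped, and the log2 difference was 0.21 (SE 0.078, 1.16-fold higher, limma p = 0.0194, adjusted p = 0.351, exact permutation p = 0.0571). *Nrp1*, the co-receptor of *Sema3a* and of VEGF, had means of 114 ± 13.7 CPM and 114 ± 8.80 CPM (SD, n = 4), and the 95% interval of its log2 difference ran from -0.20 to 0.19. Whether the 2 neuropilins differ in their response was not tested.

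Of the Slit and Robo genes, only *Slit2* had an unadjusted p under 0.05 in limma. *Slit2*, the secreted ligand (chr5:47983138-48307733), stood at 180, 96.4, 122.6 and 106 CPM in control libraries 1 to 4, against 98.2, 86.8, 81.2 and 111 CPM in mutant-labelled libraries 1 to 4. Control library 1 lay far above the other 3 controls, and the groups overlapped. The log2 difference was -0.39 (SE 0.165, 1.31-fold lower, limma p = 0.0369, adjusted p = 0.399, exact permutation p = 0.143), and -0.20 without control library 1. *Slit3* ranged over 58.7 to 75.7 CPM in controls and 66.4 to 84.5 CPM in mutant-labelled libraries, a log2 difference of 0.08. *Robo1* and *Robo2*, the receptors, had log2 differences of 0.15 and -0.12 with 95% intervals of -0.12 to 0.43 and -0.35 to 0.12. *Robo1* reached 178.5 CPM in mutant-labelled library 2 against 110 to 141 CPM in the other mutant-labelled libraries, and its log2 difference was 0.03 without library 2 and 0.26 without library 1 of that group. That of *Robo2* was -0.21 without mutant-labelled library 2, with an unadjusted p under 0.05 in limma, and -0.03 without mutant-labelled library 4.

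**Figure D3:**
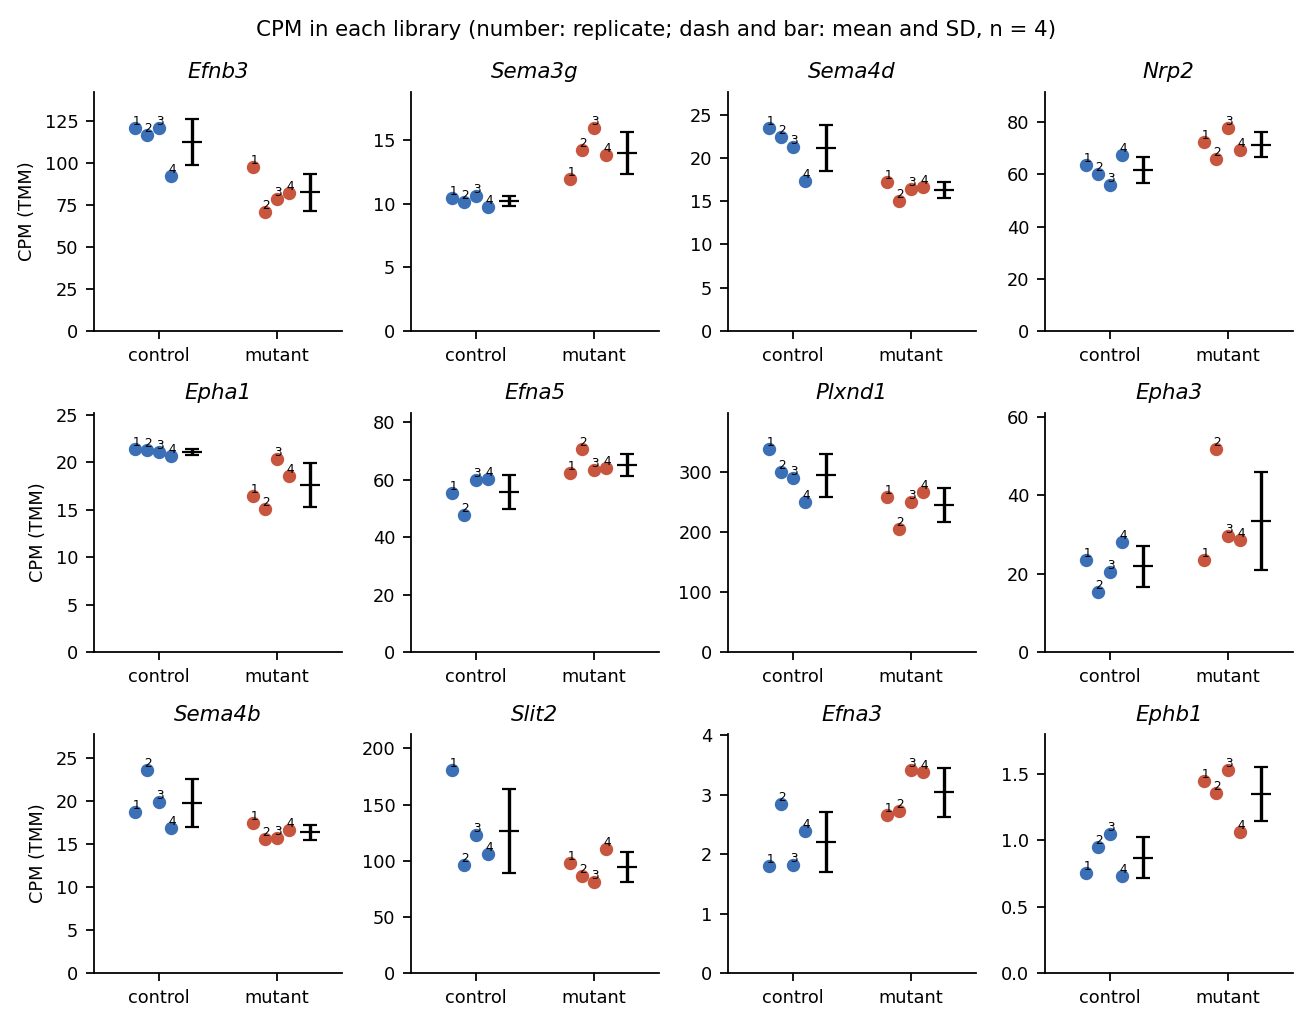
CPM of the 12 genes with an unadjusted p under 0.05 in limma, one panel a gene and each axis from 0, with a point for each library, its replicate number beside it, and a dash and bar for the mean and SD of the 4 libraries of a group. The groups do not overlap for *Sema3g*, *Sema4d*, *Epha1*, *Efna5* and *Ephb1*. In 3 panels 1 library lies away from the rest of its group: *Efnb3* (control 4, 92.3 CPM), *Epha3* (mutant-labelled 2, 51.7 CPM) and *Slit2* (control 1, 180 CPM). Of these, only that of *Efnb3* met Dixon's criterion for an outlying library.

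Among the ephrins, *Efnb3* had the smallest p of all members with *Sema3g*. This type B ephrin (chr11:69554092-69560205), known as a midline repellent of axons, stood at 121, 117, 121 and 92.3 CPM in control libraries 1 to 4. In mutant-labelled libraries 1 to 4 it stood at 97.8, 71.0, 78.6 and 82.25 CPM. The groups overlapped through control library 4, which lay below mutant-labelled library 1. Means were 112.5 ± 13.6 CPM in controls and 82.4 ± 11.3 CPM in mutant-labelled libraries (SD, n = 4), and the log2 difference was -0.45 (SE 0.109, 1.36-fold lower). The limma p was 0.00139, the adjusted p 0.228 and the exact permutation p 0.0571. It ran from -0.54 without control library 4 to -0.38 without mutant-labelled library 2.

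The other type B ephrins did not follow *Efnb3* in sign. *Efnb2*, the arterial ephrin, ranged over 147 to 165 CPM in controls and 149 to 199.9 CPM in mutant-labelled libraries, a log2 difference of 0.16 (limma p = 0.0976, exact permutation p = 0.171). Mutant-labelled library 2 was the lowest of its group, and without it the difference was 0.24, with an unadjusted p under 0.05 in limma, while without mutant-labelled library 3 it was 0.10. *Efnb1* had a log2 difference of 0.08 with a 95% interval of -0.08 to 0.24. *Efna5* (chr17:62604184-62881317), a type A ephrin, stood at 55.4, 47.6, 59.9 and 60.3 CPM in controls and at 62.3, 70.6, 63.3 and 64.0 CPM in mutant-labelled libraries. All mutant-labelled values lay above the controls, and the log2 difference was 0.22 (SE 0.085, 1.17-fold higher, limma p = 0.0210, adjusted p = 0.356, exact permutation p = 0.0286).

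*Efna1*, *Efna3* and *Efna4* lie next to each other on chromosome 3 (chr3:89271733-89338028) and differ widely in level, with means of 28.0, 2.21 and 15.3 CPM in controls. *Efna3* stood at 1.80, 2.85, 1.82 and 2.39 CPM in controls and at 2.66, 2.72, 3.41 and 3.39 CPM in mutant-labelled libraries, from 30 to 105 reads. Its groups overlapped through control library 2, and the log2 difference was 0.40 (SE 0.174, limma p = 0.0410, adjusted p = 0.402, exact permutation p = 0.0857). Of the exons of *Efna3*, 14.1% lie opposite exons of a non-coding gene. The library kit keeps the strand of the RNA, but the strand setting of the read counting is not given in the sources used here, and the part of reads from the non-coding gene was not tested. *Efna1*, a ligand of *Epha2*, and *Efna4* had log2 differences of -0.01 and 0.08.

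The Eph receptors of type A gave 1 gene in each direction. *Epha1* (chr6:42358487-42373268) stood at 21.4, 21.3, 21.1 and 20.7 CPM in controls and at 16.5, 15.05, 20.4 and 18.5 CPM in mutant-labelled libraries. All mutant-labelled values were below the controls, mutant-labelled library 3 by less than 1 CPM. The log2 difference was -0.26 (SE 0.099, limma p = 0.0201, adjusted p = 0.353, exact permutation p = 0.0286). Exons of *Zyx* on the opposite strand cover 6.01% of the exons of *Epha1*, and *Zyx* itself stood at 352.5 to 415 CPM in controls and 309 to 368 CPM in mutant-labelled libraries. The part of reads from *Zyx* in the value of *Epha1* was not tested.

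*Epha3* (chr16:63543534-63864175) is a receptor needed for the endocardial cushions. It stood at 23.6, 15.5, 20.45 and 28.0 CPM in controls and at 23.6, 51.7, 29.6 and 28.6 CPM in mutant-labelled libraries. Mutant-labelled library 2 was the highest and control library 2 the lowest. The log2 difference of 0.57 (SE 0.221, 1.48-fold higher, limma p = 0.0246, adjusted p = 0.367, exact permutation p = 0.0571) was the largest of the 53 genes, and without both of these libraries it was 0.19. *Epha7*, the most abundant type A receptor, had a log2 difference of 0.13 (limma p = 0.140, exact permutation p = 0.229), which was 0.01 with the GC trend removed.

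Receptors of type B bind the type B ephrins. *Ephb1* (chr9:101922128-102354693) was barely read, with 0.757, 0.948, 1.049 and 0.732 CPM in controls and 1.45, 1.36, 1.53 and 1.07 CPM in mutant-labelled libraries, from 10 to 47 reads. The groups were parted by the gap between control library 3 and mutant-labelled library 4, which is less than the worth of 1 read. The log2 difference was 0.43 (SE 0.190, limma p = 0.0421, adjusted p = 0.402, exact permutation p = 0.0286). *Ephb4*, the venous receptor of *Efnb2*, had means of 147 ± 10.3 CPM in controls and 144 ± 9.98 CPM in mutant-labelled libraries (SD, n = 4), and the 95% interval of its log2 difference ran from -0.18 to 0.14.

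Genes that work with these receptors inside and at the surface of the cell were taken from a list of 68 names, of which 65 are in the table. Of these, 0 passed the adjusted threshold in limma, in either edgeR test or in DESeq2. At an unadjusted p under 0.05 limma left 10 of 65 (15.4%, against 12.1% of all genes), with 5 higher and 5 lower. The groups did not overlap for 4 of the 65 (6.15%), against 7.1% of all genes, and 3 of the 4 were among those 10. *Mical3*, an oxidase of actin filaments that works in semaphorin signalling, stood at 135, 116, 133 and 111 CPM in controls and at 102, 90.3, 107 and 108 CPM in mutant-labelled libraries, a log2 difference of -0.28 (limma p = 0.00592, adjusted p = 0.270, exact permutation p = 0.0286). *Dag1*, the dystroglycan that holds Slit proteins at the cell surface, ranged over 387.5 to 452 CPM in controls and 340.1 to 374 CPM in mutant-labelled libraries, a log2 difference of -0.22 (limma p = 0.00958, adjusted p = 0.305, exact permutation p = 0.0286). *Chn2*, a chimaerin that switches off Rac, ranged over 5.55 to 7.26 CPM in controls and 7.33 to 10.6 CPM in mutant-labelled libraries, a log2 difference of 0.37 (limma p = 0.0185, adjusted p = 0.346, exact permutation p = 0.0286). *Pick1*, chosen after its values were seen, also showed no overlap, with a log2 difference of -0.12. Its exact permutation p of 0.0286, like that of the 3 genes before it, follows from the lack of overlap. The median log2 difference of the 65 genes was -0.02.

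The libraries differed with GC content, and the members with them. Among the 53 genes, the deviation of control library 2 from the mean of all libraries went up with GC content (Spearman's rho = 0.70 across genes), and that of mutant-labelled library 2 went down with it (-0.57). Over all genes these values were 0.60 and -0.45, and genes are not independent replicates. Mutant-labelled library 2 was the lowest of the 8 libraries for 20 members, and the highest for 7. With the GC trend removed, 10 of the 12 genes kept an unadjusted p under 0.05 in limma. The exceptions were *Plxnd1* and *Sema4b*, with log2 differences of -0.14 and -0.17. The 6 genes that came under 0.05 were *Sema3f*, *Ephb2*, *Efnb1*, *Robo2*, *Slit3* and *Plxna2*, and their p-values in limma ran from 0.000560 for *Sema3f* to 0.0463 for *Plxna2*. *Sema3f* and *Ephb2* were named after their values were seen.

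**Figure D4:**
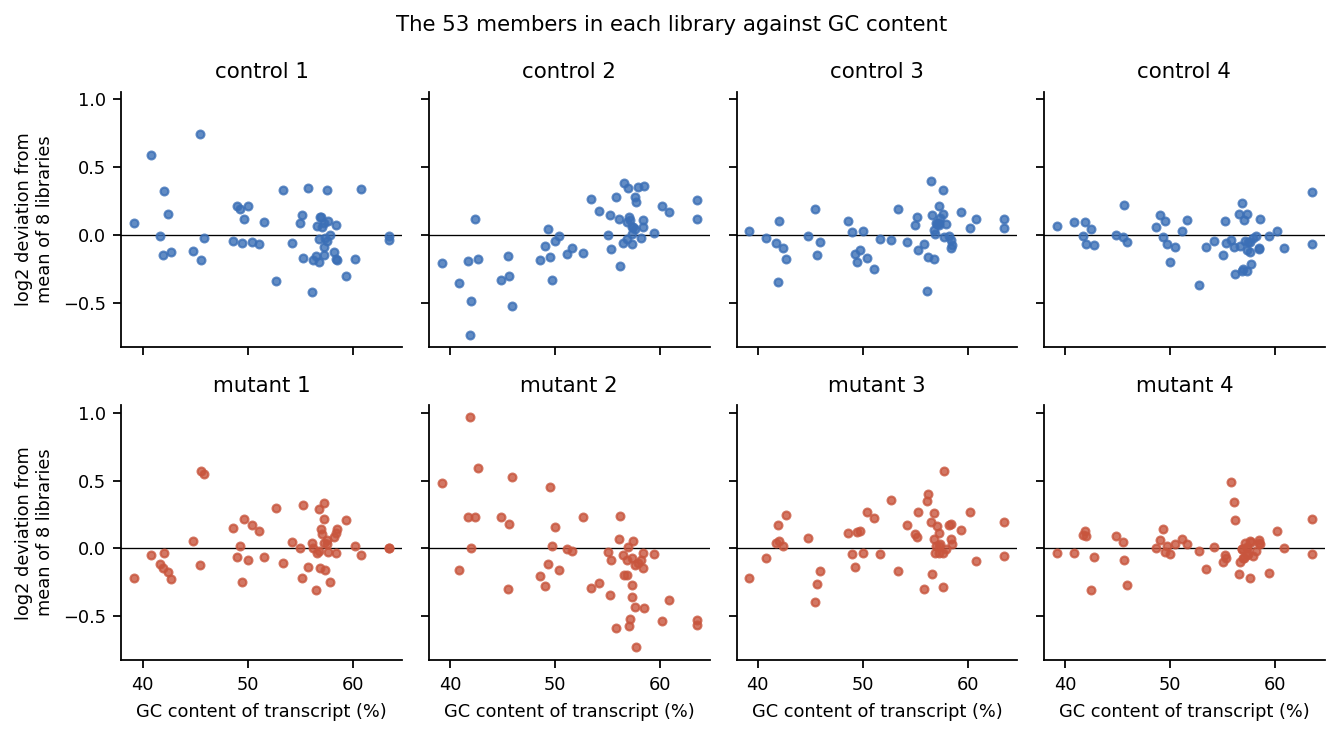
Deviation of the 53 genes from their mean over the 8 libraries on the log2 scale, against GC content of the transcript in percent (39.2 to 63.5), one panel a library (blue control, red mutant-labelled). Points climb to the right in control library 2 (rho = 0.70) and descend in mutant-labelled library 2 (rho = -0.57).

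Markers of the cell types of the OFT were looked up in the table, which lists only genes above a minimum level. Of 100 markers in 10 lists, 87 are in it. The 13 others include 6 of 8 for epithelium and endoderm and 5 of 16 for neural crest, glia and neurons. The rest of them are 2 of 8 for the second heart field and pharyngeal mesoderm. All 12 cardiomyocyte markers were lower in the mutant-labelled libraries, 11 of them with an unadjusted p under 0.05 in limma. Their summed level was 26030 to 30580 CPM in controls and 20560 to 24560 CPM in mutant-labelled libraries, with no overlap. The 6 members that were lower with an unadjusted p under 0.05 were *Efnb3*, *Sema4d*, *Epha1*, *Plxnd1*, *Sema4b* and *Slit2*. The part of cardiomyocyte content in their values was not tested.

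The second heart field holds progenitors that build the OFT. Its list, which also covers pharyngeal mesoderm, stood apart as well when each marker had the same weight. The mean log2 deviation of this list was -0.291 to -0.0382 in controls and 0.0221 to 0.429 in mutant-labelled libraries. *Isl1*, *Tbx1* and *Tlx1* were higher with an unadjusted p under 0.05. *Tbx1* (1.54 to 4.62 CPM over the libraries) and *Tlx1* (2.775 to 5.92 CPM) were low. *Fgf10* and *Eya1* had log2 differences of 0.20 and 0.25 with p-values above 0.05, and *Mef2c* had -0.02. The summed level of this list, most of it *Mef2c*, overlapped (136 to 164 CPM in controls, 157 to 188 CPM in mutant-labelled libraries). The other 8 lists overlapped in both measures. Of the epicardial markers, 7 were higher and 1 lower, none with an unadjusted p under 0.05. Their summed level was 656 CPM in mutant-labelled library 2, 386 to 459.5 CPM in the other mutant-labelled libraries and 397 to 526.5 CPM in controls. *Sema3c*, *Epha3* and *Robo1* were also highest in mutant-labelled library 2, and the part of epicardial content in their values was not tested. *Stmn2* and *Elavl4* of the neural crest and neuronal list were higher with an unadjusted p under 0.05, while *Sox10* and *Erbb3* of that list had log2 differences of -0.43 and -0.25 and p-values above it. Among endothelial markers, *Emcn* and *Npr3* were lower by that criterion (-0.57 and -0.46). Of the smooth muscle markers, *Myh11* and *Cald1* were higher (0.78 and 0.26) and *Myocd* and *Smtn* lower (-0.27 and -0.19), and *Cd68* of the macrophage list was lower (-0.41). The part of these cell types in the values of the members, *Sema3g*, *Nrp2* and *Efna5* among them, was not tested.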

How the data were processed

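PolyA RNA of E11.5 OFT was sequenced in 4 control and 4 Mib1V943F/+ Gata6STOP/+ pools, grouped by their titles. Per the study's methods and the labels, adapters were cut from 60 bp single-end reads with cutadapt 1.18, and RSEM 1.2.3 assigned the reads to Ensembl genes of GRCm38. The authors then required 1 CPM in 3 or more samples and applied TMM in edgeR 3.32.1 (R 4.0.3). The deposited unit is CPM scaled by the TMM factor, and its column sums lie between 983361 and 1016347. The CPM worth of 1 read in each column was found here from the spacing of its low values. On that scale, 100% of values came out whole within 0.01 of a read in all 8 columns. A simpler automatic check, which takes the lowest value as 1 read, could verify this in 3 of the 8 columns, so count tests serve only as alternatives. The total of reads per library limits the precision of low genes, and gene lengths and GC content come from the GENCODE annotation of GRCm38.

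All genes were fitted in limma 3.58.1 (R 4.3.3, lmFit, then eBayes with trend) to log2(CPM + 0.5) of all 8 libraries, with no covariate, two-sided p-values and Benjamini-Hochberg adjustment over 14608 genes at a threshold of 0.05. Log2 differences on that scale understate the change of low genes. Exact permutation tests used the 70 relabellings of 4 against 4 libraries and are not adjusted. Groups that do not overlap always give 0.0286 in this test. Scripts were tested on simulated data. The alternatives were other pseudocounts, a filter on low values, other scalings, edgeR 4.0.16 (quasi-likelihood and likelihood ratio) and DESeq2 1.42.0 on recovered reads, a replicate block, each library left out, and removal of each library's GC trend. The fits without 1 library in the likelihood ratio test, and without control 2 and mutant-labelled 2, were added after seeing the data. Same-numbered libraries did not deviate together (correlations of 0.0349, -0.185, 0.0268 and -0.0454), so the numbers were not used as pairs.

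The genes, the partner list and the marker lists were chosen with earlier results of these data known. Named with values were genes whose groups do not overlap or whose unadjusted limma p is under 0.05, the gene with the highest CPM per kb of each family, 16 genes known from mouse genetics of the OFT, cushions or vessels, and partner genes with both criteria. Of 62 names of the pattern in the annotation, 9 (*Epha5*, *Epha6*, *Epha8*, *Epha10*, *Robo3*, *Slit1* and 3 antisense genes of *Plxna4*) were not analysed here.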

Additional observations from a re-analysis of the deposited data

Results flagged for a closer look

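Of the 68 groups of 4 libraries examined for the named genes, 2 held a library that stood apart by Dixon's criterion, where chance gives about 1 in 20. *Efna1* stood at 31.5 CPM in control library 2, with the other 3 controls between 26.7 and 26.9 CPM. *Efnb3* stood at 92.3 CPM in control library 4, with the other 3 controls between 117 and 121 CPM.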

How the results depend on the processing

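The number of members past the adjusted threshold was 0 in limma under every alternative and in the quasi-likelihood test. It was 1 in the likelihood ratio test and 2 in DESeq2. The likelihood ratio test gave 0 to 2 without 1 library, and 2 without control replicate 4 and without mutant replicate 1. Members with an unadjusted p under 0.05 numbered 7 to 15 in limma without 1 library, with 7 without control replicate 3 and 7 without mutant replicate 3, and 8 to 16 in the likelihood ratio test. Over all genes the share under 0.05 was 7.67% to 14.8% and 7.41% to 13.8% in these fits. The share of members was above it in 8 of 8 fits of each test. In limma it was 13.2% against 8.02% without control replicate 3, and 13.2% against 10.7% without mutant replicate 3. Fits without 1 library share most of their libraries, and both tests use the same ones, so these counts are not independent repeats. Partner genes numbered 4 to 10 in limma without 1 library, with 4 without control replicate 2, 5 without control replicate 3 and 4 without mutant replicate 2. In the likelihood ratio test these were 3, 5 and 3 of a range of 3 to 10, and limma gave 2 without control 2 and mutant 2 (3.08%, against 8.1% of all genes). The share of partner genes was above that of all genes in 5 of 8 limma fits and 3 of 8 likelihood ratio fits. The labels give no shared litter or day for a replicate number. With the replicate number as a block, 0 members passed the adjusted threshold and 9 had an unadjusted p under 0.05 (17.0%, against 8.93% of all genes).

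Among 644 values of the named genes under the alternatives, 599 kept direction and side of the threshold, 3 passed it (*Efnb3* -0.45 in both count tests and *Sema3g* 0.45 in DESeq2) and 42 changed sign, all of genes whose log2 difference lay between -0.16 and 0.01. Without the TMM factor these were *Efna1* 0.01, *Nrp1* 0.021 and *Plxna1* 0.021. With the GC trend removed they were *Efna1* 0.044, *Ephb4* 0.078, *Nrp1* 0.002, *Plxna1* 0.09, *Plxnb2* 0.036, *Sema3d* -0.14, *Sema5b* 0.057 and *Sema7a* 0.03. Without control 2 and mutant 2 they were *Efna1* 0.13, *Ephb4* 0.056, *Plxna1* 0.001, *Sema3d* -0.22, *Sema4c* 0.068, *Sema5b* 0.17 and *Sema7a* 0.24. In the count tests they were *Efna1* 0.0 (likelihood ratio) and *Sema7a* 0.011 (quasi-likelihood), 0.006 (likelihood ratio) and 0.004 (DESeq2). Leaving out 1 library changed the sign of *Efna1* (-0.07 to 0.071), *Ephb4* (-0.061 to 0.022), *Nrp1* (-0.067 to 0.07), *Plxna1* (-0.036 to 0.028), *Sema3a* (-0.30 to 0.015), *Sema3d* (-0.16 to 0.079), *Sema4c* (-0.18 to 0.048), *Sema5b* (-0.16 to 0.11) and *Sema7a* (-0.27 to 0.17). The causes were not tested. Genes under 3 CPM rest on as few as 9 reads, and the depth of control library 2 limits them most.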
